A study of Homo sapiens with 18 samples.

Results

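The 9 genes described here encode the kinases that phosphorylate the translation initiation factor eIF2 alpha, the regulatory subunits that remove this phosphate, and the proteins that bind PKR. They were chosen by name: the 4 kinases EIF2AK1 (HRI), EIF2AK2 (PKR), EIF2AK3 (PERK) and EIF2AK4 (GCN2), the phosphatase subunits PPP1R15A (GADD34) and PPP1R15B (CReP), and the PKR-binding proteins PRKRA (PACT), TARBP2 (TRBP) and DNAJC3 (p58IPK). All 9 were among the 26485 genes listed, and all 9 passed the filter on low values in both experiments. The libraries came from PANC-1, an established line of a human pancreatic ductal carcinoma, and no other line was sequenced. In the first experiment, cells were transfected with a control siRNA or with one of 2 siRNAs, PKR siRNA 1 and PKR siRNA 2 (siRNA 1 and siRNA 2 in what follows), short double-stranded RNAs that direct cleavage of the EIF2AK2 mRNA. In the second, cells received the solvent DMSO or the PKR kinase inhibitor C16 at 400 nM or 800 nM. RNA was taken at 72 h, with 3 libraries in each of the 6 groups, and the experiments were sequenced in separate runs and normalized separately, so values were compared only within an experiment. Whether the 3 libraries of a group were separate cultures is not stated, so p-values measure the spread between libraries, which may be technical.

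Phosphorylation of eIF2 alpha blocks the exchange factor eIF2B, which lowers general protein synthesis while mRNAs with upstream reading frames, such as that of ATF4, are translated more. Each kinase senses a different state: EIF2AK2 binds double-stranded RNA, EIF2AK3 responds to unfolded proteins in the endoplasmic reticulum, EIF2AK4 to uncharged tRNA, and EIF2AK1 to low heme and to mitochondrial stress relayed by DELE1. PPP1R15A, which is induced by stress, and PPP1R15B, which is made constitutively, each bring protein phosphatase 1 to eIF2 alpha and so reverse the signal. The question put to the data was whether the transcripts of the other kinases, the phosphatase subunits and the PKR partners differed when EIF2AK2 was knocked down or PKR activity was inhibited.

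The promoters of 4 of the 9 genes are shown, those of EIF2AK2, the target, and of the kinase gene and both phosphatase subunit genes that passed the thresholds upward. Each runs from 250 bases before to 50 bases after an annotated start, 5′ to 3′ on the gene's strand, from RefSeq on GRCh38.p14. Both strands of 35116 such windows were searched for 4 motifs, whose letters were chosen with the sequences at hand. Matches are in capitals. The motifs were TGACGTCA, the cAMP response element, in 1.85% of all windows, TGATGNAA, the site bound by C/EBP-ATF dimers, in 3.62%, an interferon-stimulated response element (GAAA, any 2 bases, GAAA) in 3.57%, and the endoplasmic reticulum stress element (CCAAT, any 9 bases, CCACG) in 0.0769%. The windows lie at chr2:37156931-37157230 (minus strand) for EIF2AK2, chr2:88627415-88627714 (minus) for EIF2AK3, chr19:48872171-48872470 (plus) for PPP1R15A and chr1:204411768-204412067 (minus) for PPP1R15B. Positions of genes given with the results are the whole annotated genes, introns included, on the same build.
EIF2AK2: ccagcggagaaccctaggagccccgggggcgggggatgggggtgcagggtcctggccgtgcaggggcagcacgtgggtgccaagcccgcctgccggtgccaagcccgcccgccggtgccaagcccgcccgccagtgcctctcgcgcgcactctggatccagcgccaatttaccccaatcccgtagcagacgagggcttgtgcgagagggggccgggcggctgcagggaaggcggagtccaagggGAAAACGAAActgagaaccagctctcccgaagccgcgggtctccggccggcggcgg
EIF2AK3: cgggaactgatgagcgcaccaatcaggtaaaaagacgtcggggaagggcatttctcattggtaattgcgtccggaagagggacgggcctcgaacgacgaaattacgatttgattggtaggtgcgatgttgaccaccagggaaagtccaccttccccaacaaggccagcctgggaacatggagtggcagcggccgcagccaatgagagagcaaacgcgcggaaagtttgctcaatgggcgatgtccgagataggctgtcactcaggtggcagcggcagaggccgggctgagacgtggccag
PPP1R15A: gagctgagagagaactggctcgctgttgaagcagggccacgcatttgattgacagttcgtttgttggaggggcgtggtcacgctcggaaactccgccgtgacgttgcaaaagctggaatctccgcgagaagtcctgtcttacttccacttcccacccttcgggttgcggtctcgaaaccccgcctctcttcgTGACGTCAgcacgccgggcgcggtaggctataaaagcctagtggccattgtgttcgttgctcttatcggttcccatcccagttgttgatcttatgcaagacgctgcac
PPP1R15B: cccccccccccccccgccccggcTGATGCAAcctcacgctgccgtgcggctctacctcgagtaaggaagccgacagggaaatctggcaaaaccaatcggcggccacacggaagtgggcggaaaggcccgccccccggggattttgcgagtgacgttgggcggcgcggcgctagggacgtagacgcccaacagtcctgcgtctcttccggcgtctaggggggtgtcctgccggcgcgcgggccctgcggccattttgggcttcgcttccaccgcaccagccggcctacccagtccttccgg
The EIF2AK2 window held the interferon-stimulated element, beginning 6 bases before the start. The PPP1R15A window held the cAMP response element 58 bases before it, and the PPP1R15B window the C/EBP-ATF site 227 bases before it. The EIF2AK3 window held none of the 4 motifs as spelled. Windows were matched for 8 of the 9 genes, all but EIF2AK1, and those of PRKRA, TARBP2, DNAJC3 and EIF2AK4 held none of the 4 motifs either.

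Reads on genes numbered 1512940 to 1873906 per siRNA library and 894145 to 1474308 per C16 library, so genes with few reads are imprecise. The epithelial markers KRT8, KRT18 and KRT19 were present in every library (summed with KRT7, EPCAM and CDH1, 3052 to 10230 normalized counts in the siRNA libraries and 5172 to 7572 in the C16 libraries). The last 3 were far lower: KRT7 at 1.99 to 20.5 and 0.761 to 8.51, EPCAM at 9.4 to 120 and 16.2 to 32.4, and CDH1 at 9.07 to 61.7 and 13.4 to 35.8. Mesenchymal markers were also present, VIM at 4633 to 5381 and 1887 to 3081, and CDH2 at 71.65 to 133.5 and 57.3 to 97.8. PTPRC, CD3E, COL1A2, DCN, CPA1 and CELA3A, markers of leukocytes, fibroblasts and acinar cells, were at 0 in all 18 libraries. Of the same lists, CD68 stood at 147 to 273 normalized counts in the siRNA libraries and 51.0 to 171 in the C16 libraries, COL1A1 at 21.8 to 115 and 58.2 to 161, and LYZ, LUM, PRSS1 and the endothelial PECAM1, CDH5 and VWF at no more than 4.82. The part of other cells in the results was not tested. In such bulk libraries, fewer expressing cells and less RNA per cell cannot be told apart. Values are normalized counts, and means are given ± SD with n = 3. Log2 fold changes are on the log2 (normalized count + 1) scale, so that the change of a gene with few counts comes out too small. Adjusted p-values are from limma, two-sided, with Benjamini-Hochberg adjustment over all genes tested. A gene is said to have risen or fallen only where the adjusted p was under 0.05 and the fold change over 1.5, the thresholds of the study.

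EIF2AK2 fell strongly with both siRNAs and did not pass the test with C16. EIF2AK2 (chromosome 2, 37105141 to 37157047, minus strand) encodes PKR, which is activated by double-stranded RNA. It had 95.5, 93.5 and 103 normalized counts in the control siRNA libraries, 10.0, 13.6 and 9.65 with siRNA 1, and 7.96, 8.58 and 9.40 with siRNA 2. No library of either siRNA came near a control library, and the 2 siRNA groups did not overlap each other. The group means were 97.4 ± 5.21, 11.1 ± 2.19 and 8.65 ± 0.726. On the log2 scale the change was -3.04 (SE 0.25, limma adjusted p = 4.69e-18) with siRNA 1 and -3.35 (SE 0.25, adjusted p = 2.58e-20) with siRNA 2, which left 11.4% and 8.87% of the control mean. The siRNAs differed by -0.31 (95% interval -0.80 to 0.18, limma adjusted p = 0.282), so a difference in depth of knockdown was not shown at 8 to 15 reads per library.

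With C16, which acts on the kinase and not on its mRNA, EIF2AK2 stood at 45.7, 49.5 and 54.1 in DMSO, 45.7, 39.2 and 42.6 at 400 nM, and 51.4, 48.7 and 49.6 at 800 nM. Both doses overlapped DMSO. Against DMSO the log2 fold change was -0.22 at 400 nM (95% interval -0.56 to 0.11, limma adjusted p = 0.35) and 0.01 at 800 nM (-0.33 to 0.34, adjusted p = 0.974).

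EIF2AK3 rose with each siRNA and with 800 nM C16. EIF2AK3 (chromosome 2, 88556741 to 88627576, minus strand) encodes PERK, the kinase of the endoplasmic reticulum membrane. Its level was 18.5, 23.6 and 19.9 normalized counts with control siRNA, 44.4, 33.6 and 29.9 with siRNA 1, and 34.8, 45.0 and 38.6 with siRNA 2. All 6 knockdown libraries lay above all 3 control libraries, while the 2 siRNA groups overlapped each other. With siRNA 1 and siRNA 2 the log2 fold changes were 0.76 (SE 0.21, limma adjusted p = 0.00219) and 0.90 (SE 0.21, adjusted p = 0.000253), a 1.69-fold and a 1.87-fold rise. The difference between the siRNAs was 0.14 (95% interval -0.28 to 0.56).

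In the C16 experiment EIF2AK3 had 13.6, 16.2 and 20.6 normalized counts in DMSO, 22.3, 26.5 and 13.8 at 400 nM, and 32.3, 30.5 and 37.2 at 800 nM. The 400 nM libraries overlapped DMSO, and the 800 nM libraries lay above both other groups. The log2 fold change was 0.96 at 800 nM (SE 0.25, limma adjusted p = 0.0013, 1.95-fold) and 0.27 at 400 nM (95% interval -0.23 to 0.77, adjusted p = 0.459). The doses differed by 0.69 (adjusted p = 0.0541), just short of the threshold. These values rest on 13 to 42 reads per library, and the counting error alone (from the square root of the reads), 4.59 normalized counts in the control siRNA group and 3.82 in DMSO, was at least as large as the SD between libraries there (2.66 and 3.52). The study also lists EIF2AK3 in a supplementary set of raised genes chosen on these same libraries, so the values are no independent evidence of its direction. On the opposite strand LOC101928371 covers 16.8% of its exon bases, and that gene was listed at 0 in all 18 libraries.

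EIF2AK4 was the only other kinase whose adjusted p was under 0.05 against control siRNA, and in the opposite direction to EIF2AK3. EIF2AK4 (chromosome 15, 39934124 to 40035596, plus strand) encodes GCN2, the sensor of amino acid shortage. It had 124, 162 and 150 normalized counts with control siRNA, 106, 108 and 106 with siRNA 1, and 135, 103 and 121 with siRNA 2. The siRNA 1 libraries lay below every control library, whereas the siRNA 2 libraries overlapped them. Its log2 fold changes were -0.44 (SE 0.11, limma adjusted p = 0.000936) and -0.28 (SE 0.11, adjusted p = 0.0369), both short of 1.5-fold. With C16 the values were 108, 86.7 and 90.6 in DMSO, 104 to 112 at 400 nM and 96.8 to 115 at 800 nM. The doses overlapped DMSO, with log2 fold changes of 0.20 (limma adjusted p = 0.215) and 0.15 (adjusted p = 0.318).

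EIF2AK1 stayed within 1.5-fold in every comparison. EIF2AK1 (chromosome 7, 6022247 to 6059229, minus strand) encodes HRI, the kinase inhibited by heme. Its mean was 531 ± 20.0 with control siRNA, 507 ± 21.6 with siRNA 1 and 563 ± 35.9 with siRNA 2. Each siRNA group overlapped the control, with log2 fold changes of -0.07 (95% interval -0.19 to 0.06, limma adjusted p = 0.413) and 0.08 (-0.04 to 0.21, adjusted p = 0.29). In the C16 experiment it had 356, 349 and 325 normalized counts in DMSO, 299, 301 and 288 at 400 nM, and 319, 314 and 286 at 800 nM. Every C16 library lay below every DMSO library, by -0.21 on the log2 scale at 400 nM (SE 0.08, limma adjusted p = 0.0437) and -0.16 at 800 nM (SE 0.08, adjusted p = 0.0939). AIMP2, which overlaps 11.91% of the exon bases of EIF2AK1 from the opposite strand, differed by 0.37 and 0.33 with the siRNAs and by -0.48 and -1.19 at 400 nM and 800 nM C16. The counting strand is not given in the sources used here, so the part of AIMP2 reads in the EIF2AK1 values was not tested.

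**Figure D1:**
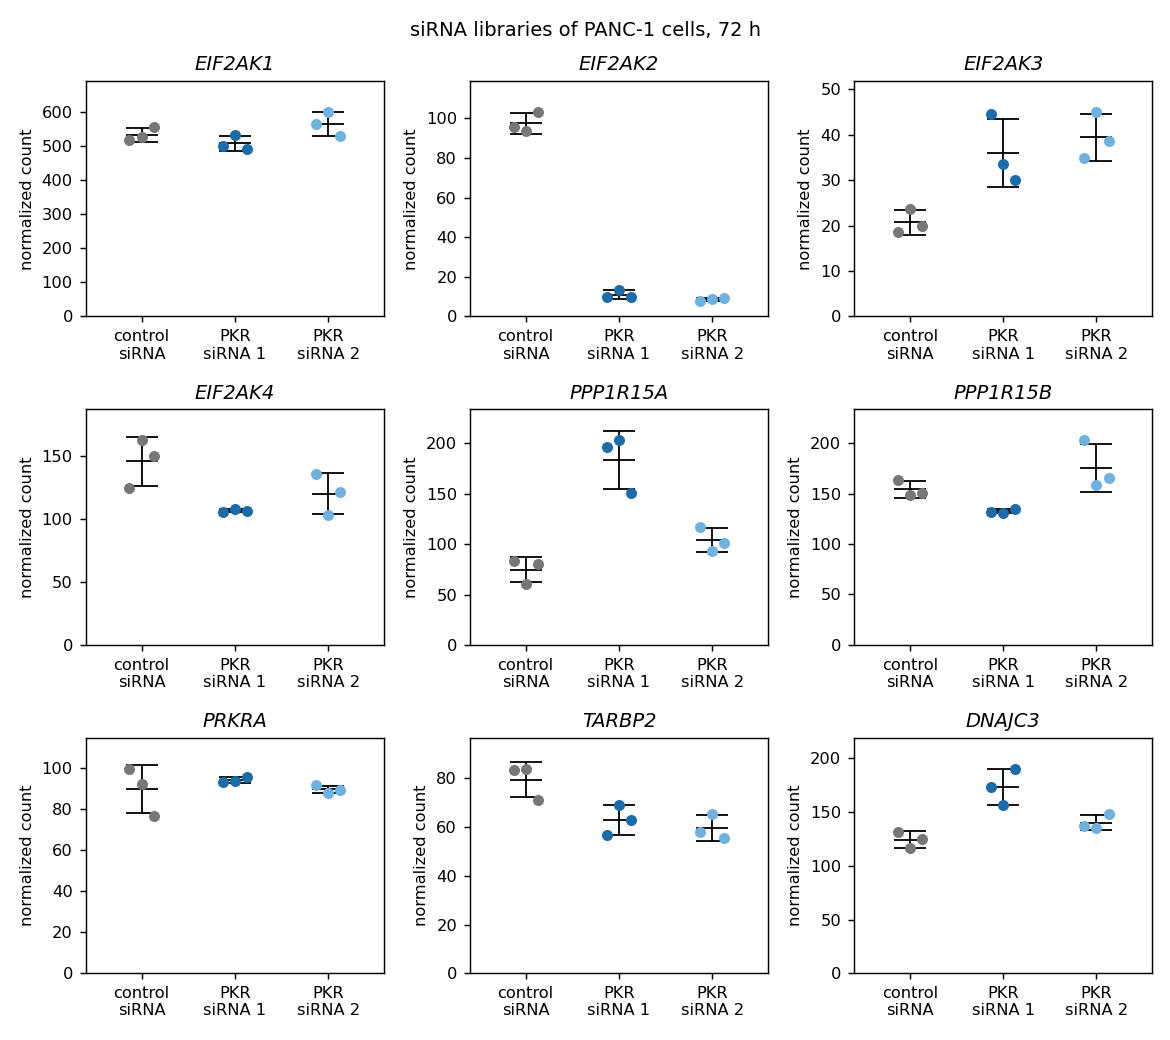
Normalized counts of the 9 genes in the 3 groups of the siRNA experiment (points are libraries, bars the mean ± SD, n = 3, linear axes from 0). EIF2AK2 drops from 97.4 to 11.1 and 8.65, EIF2AK3 sits above the control in all 6 knockdown libraries, and PPP1R15A is highest with siRNA 1.

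Per kilobase of exon, EIF2AK1 was the most abundant of the 4 kinase transcripts and, with control siRNA, EIF2AK3 the least. These levels divide the normalized count by the summed length of all annotated exons, which can exceed the length of the isoform a cell makes. With control siRNA the levels were 119 ± 4.48 for EIF2AK1, 26.3 ± 3.50 for EIF2AK4, 22.4 ± 1.20 for EIF2AK2 and 4.45 ± 0.572 for EIF2AK3. EIF2AK4 and EIF2AK2 overlapped each other, and the other neighbours in this order did not. EIF2AK2 made up 13.0% of the summed kinase level with control siRNA, 1.78% with siRNA 1 and 1.26% with siRNA 2. EIF2AK3 made up 2.58%, 5.41% and 5.36%.

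The summed level of the 4 kinases was 172 ± 7.71 per kilobase with control siRNA, 143 ± 5.65 with siRNA 1 and 158 ± 7.11 with siRNA 2. Without EIF2AK2 the sums were 149.7 ± 6.98, 141 ± 5.19 and 156 ± 7.23. The gain in EIF2AK3, from 4.45 to 7.74 and 8.49 per kilobase, was thus small beside the loss of EIF2AK2, from 22.4 to 2.55 and 1.99. In the C16 experiment the sum was 109 ± 3.28 in DMSO, 100.3 ± 2.50 at 400 nM and 106 ± 3.39 at 800 nM, and the share of EIF2AK3 was 3.33%, 4.46% and 6.76%. These sums describe transcripts and not kinase protein or activity, and no test was made on them.

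**Figure D2:**
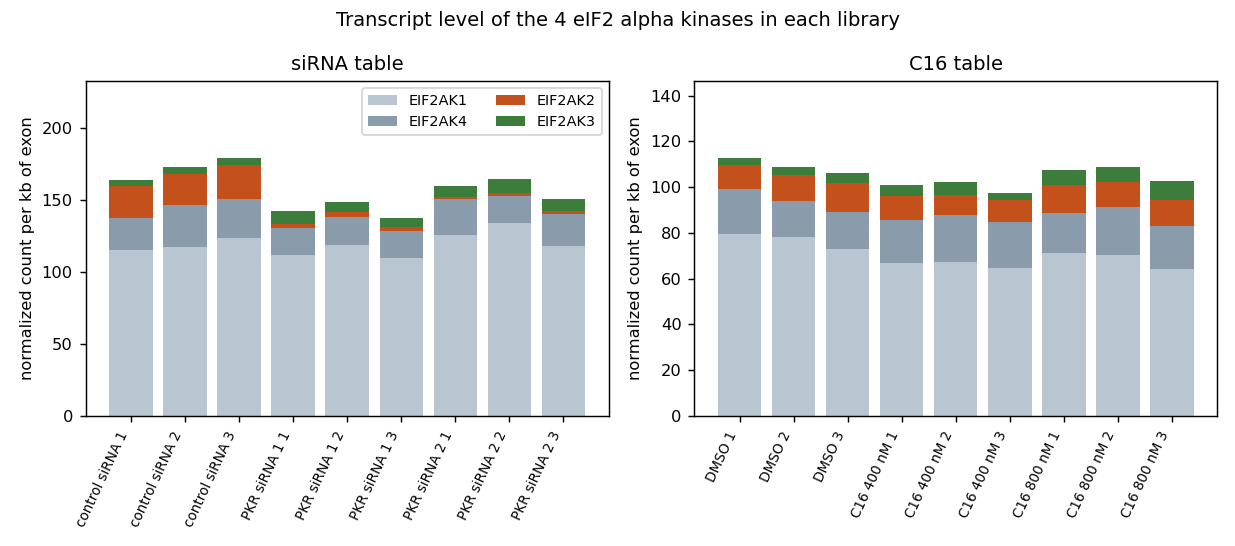
Normalized counts per kilobase of exon of the 4 eIF2 alpha kinases, stacked for each library, with the siRNA experiment on the left and the C16 experiment on the right (the y axes differ). EIF2AK1 makes up most of each bar, the EIF2AK2 part nearly vanishes with both siRNAs, and the EIF2AK3 part is small in every library.

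Both phosphatase subunits rose with C16, whereas with the siRNAs PPP1R15A rose with siRNA 1 and PPP1R15B with neither. PPP1R15A (chromosome 19, 48872392 to 48876062, plus strand) encodes the stress-induced subunit GADD34. It had 83.2, 60.2 and 80.6 normalized counts with control siRNA, 197, 203 and 150.5 with siRNA 1, and 117, 93.3 and 102 with siRNA 2. The 3 groups did not overlap, and siRNA 2 stood between the other 2. Log2 fold changes were 1.29 with siRNA 1 (SE 0.12, limma adjusted p = 5.93e-15, 2.44-fold) and 0.48 with siRNA 2 (SE 0.12, adjusted p = 0.000675, 1.40-fold and so under 1.5). The difference between the siRNAs was itself past both thresholds, at -0.81 (SE 0.12, limma adjusted p = 3.23e-08).

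With C16, PPP1R15A had 29.1, 29.5 and 26.6 normalized counts in DMSO, 67.0, 71.5 and 61.7 at 400 nM, and 43.4, 57.3 and 65.8 at 800 nM. Every C16 library lay above every DMSO library, and the 2 doses overlapped. It rose by 1.20 on the log2 scale at 400 nM (SE 0.17, limma adjusted p = 1.48e-07, 2.30-fold) and by 0.92 at 800 nM (SE 0.17, adjusted p = 1.39e-05, 1.89-fold). The higher dose gave no larger value, with a difference of -0.28 (95% interval -0.63 to 0.07, limma adjusted p = 0.299).

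PPP1R15B (chromosome 1, 204403364 to 204411817, minus strand) encodes the constitutive subunit CReP. Its level was 163, 148 and 151 with control siRNA, 132, 131 and 135 with siRNA 1, and 203, 159 and 166 with siRNA 2. The siRNA 1 libraries lay below the control and the siRNA 2 libraries overlapped it, with log2 fold changes of -0.21 (limma adjusted p = 0.0767) and 0.18 (adjusted p = 0.134). Neither passed, but the siRNAs differed from each other by 0.39 (SE 0.10, limma adjusted p = 0.000561), short of 1.5-fold.

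In the C16 experiment PPP1R15B had 69.0, 60.0 and 80.7 normalized counts in DMSO, 126, 134 and 150 at 400 nM, and 128, 143 and 128 at 800 nM. The doses overlapped each other and lay wholly above DMSO. It rose by 0.96 at 400 nM (SE 0.12, limma adjusted p = 4.37e-09, 1.95-fold) and by 0.93 at 800 nM (SE 0.12, adjusted p = 4.79e-09, 1.90-fold).

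Set against each other per kilobase of exon, PPP1R15A stood at 1.07 ± 0.151 times PPP1R15B with control siRNA, 3.07 ± 0.526 times with siRNA 1 and 1.31 ± 0.0404 times with siRNA 2. With C16, where both subunits rose, the ratio was 0.918 ± 0.18 in DMSO, 1.09 ± 0.157 at 400 nM and 0.926 ± 0.198 at 800 nM, and the 3 groups overlapped. No test was made on this ratio.

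**Figure D3:**
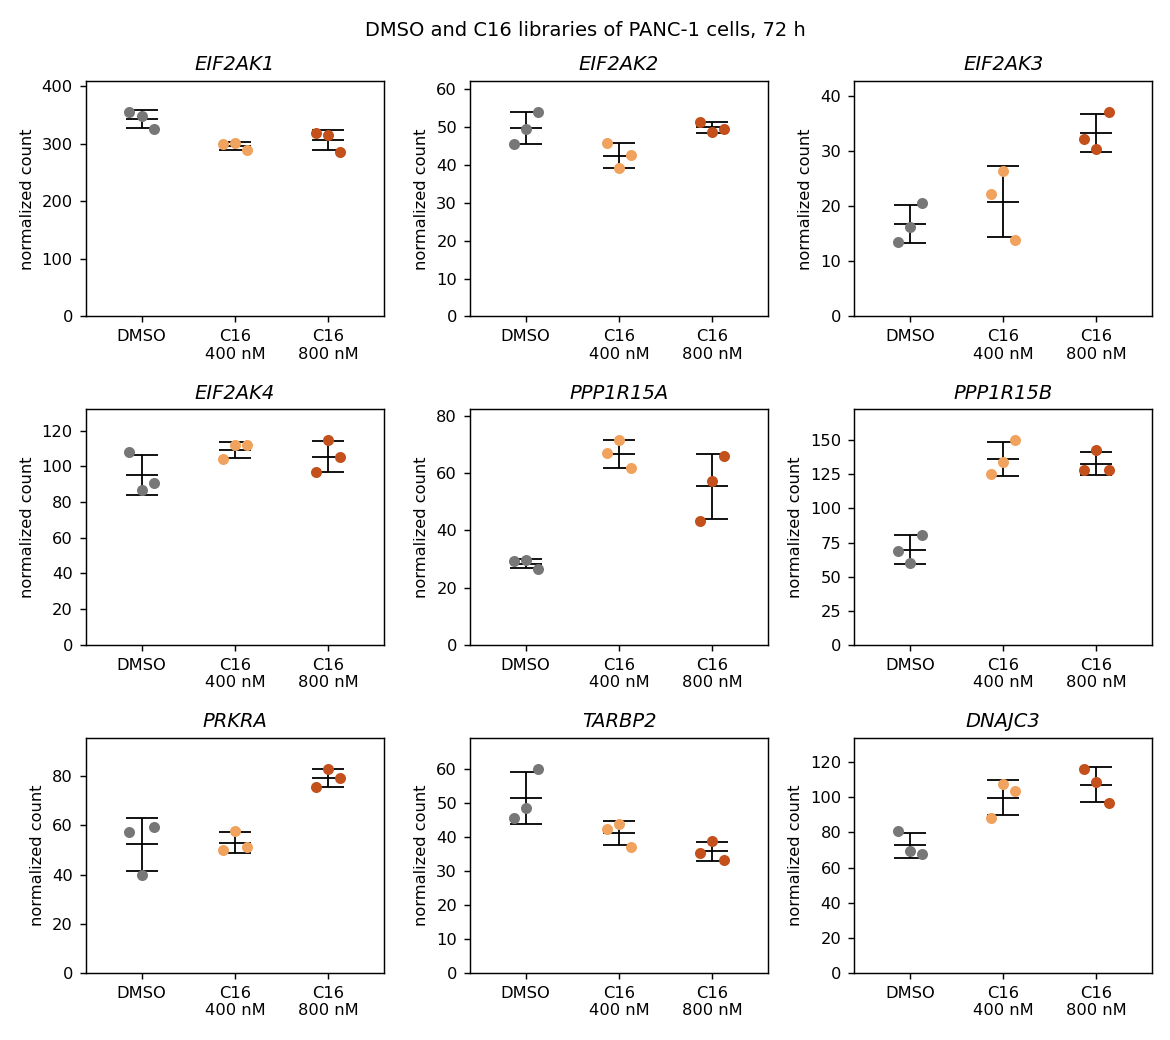
Normalized counts of the 9 genes in the DMSO, 400 nM and 800 nM C16 libraries (points are libraries, bars the mean ± SD, n = 3, linear axes from 0). PPP1R15A and PPP1R15B lie above DMSO at both doses, EIF2AK3 and PRKRA lie above DMSO at 800 nM only, and EIF2AK2 overlaps DMSO at both doses.

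Of the PKR-binding proteins, PRKRA rose at 800 nM C16, by little more than 1.5-fold. PRKRA (chromosome 2, 178431414 to 178451231, minus strand) encodes PACT, which activates PKR without double-stranded RNA under stress. With control siRNA, siRNA 1 and siRNA 2 it stood at 89.6 ± 11.7, 94.1 ± 1.25 and 89.6 ± 1.81, with log2 fold changes of 0.08 (95% interval -0.17 to 0.33) and 0.01 (-0.24 to 0.26). With C16 it had 57.3, 40.0 and 59.4 normalized counts in DMSO, 49.99, 57.7 and 51.1 at 400 nM, and 75.7, 82.9 and 79.2 at 800 nM. The 800 nM libraries lay above all others, and the 400 nM libraries overlapped DMSO. The log2 fold change was 0.61 at 800 nM (SE 0.16, limma adjusted p = 0.00103, 1.53-fold) and 0.04 at 400 nM (adjusted p = 0.891), and the doses differed by 0.58 (SE 0.16, limma adjusted p = 0.00786, 1.49-fold). The second DMSO library was the lowest, and without it the change at 800 nM was 0.43, under 1.5-fold (limma adjusted p = 0.0327). It was also under 1.5-fold without the second 800 nM library, at 0.58.

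TARBP2 was lower in every treatment, short of 1.5-fold. TARBP2 (chromosome 12, 53500921 to 53506431, plus strand) encodes TRBP, a partner of Dicer that also binds and restrains PKR. It had 83.2, 83.8 and 71.1 normalized counts with control siRNA, 56.6, 68.9 and 62.7 with siRNA 1, and 57.7, 65.4 and 55.5 with siRNA 2. In the C16 experiment it had 45.7, 48.6 and 60.1 in DMSO, 42.5, 43.8 and 37.2 at 400 nM, and 35.3, 39.0 and 33.4 at 800 nM. No treated library of the 4 treatments overlapped its controls. The log2 fold changes were -0.33 (limma adjusted p = 0.052) and -0.41 (adjusted p = 0.0157) with siRNA 1 and 2, and -0.31 (adjusted p = 0.209) and -0.50 (adjusted p = 0.0192) at 400 nM and 800 nM C16.

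DNAJC3 was higher with siRNA 1 and at both doses of C16, also short of 1.5-fold. DNAJC3 (chromosome 13, 95677139 to 95794989, plus strand) encodes p58IPK, a co-chaperone of the endoplasmic reticulum first described as an inhibitor of PKR. Its level was 131, 116 and 125 with control siRNA, 173, 156 and 190.1 with siRNA 1, and 137, 135 and 148 with siRNA 2. Both siRNA groups lay above the control and apart from each other. The log2 fold change was 0.47 with siRNA 1 (SE 0.10, limma adjusted p = 8.4e-05) and 0.17 with siRNA 2 (SE 0.10, adjusted p = 0.163), and the siRNAs differed by -0.30 (adjusted p = 0.00947).

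With C16, DNAJC3 had 80.6, 69.5 and 67.8 normalized counts in DMSO, 88.3, 107 and 103 at 400 nM, and 116, 108 and 96.4 at 800 nM. All C16 libraries lay above all DMSO libraries, and the doses overlapped. The log2 fold change was 0.45 (SE 0.13, limma adjusted p = 0.00586) and 0.55 (SE 0.13, adjusted p = 0.000314). Without the first DMSO library or the third 800 nM library the change at 800 nM passed 1.5-fold, at 0.63 and 0.62.

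Counted together, 3 of the 9 genes passed both thresholds with siRNA 1 (EIF2AK2, EIF2AK3 and PPP1R15A), where 21.1% of the 10593 genes tested did. With siRNA 2 the count was 2 of 9 (EIF2AK2 and EIF2AK3) beside 23.5%. At 400 nM C16 it was 2 of 9 (PPP1R15A and PPP1R15B) beside 12.5% of 9963 genes, and at 800 nM 4 of 9 (these and EIF2AK3 and PRKRA) beside 25.7%. In siRNA 2 against siRNA 1 it was 1 of 9 (PPP1R15A) beside 31.7%. On the adjusted p alone, the counts in these 5 comparisons were 5, 5, 4, 6 and 4 of 9, beside 45%, 47.3%, 26.5%, 44.9% and 57% of all genes. With such backgrounds the counts say nothing particular about the 9 genes as a set. EIF2AK2 is the target of both siRNAs, so its place in the siRNA counts was set by the design. Of the other 8 genes, EIF2AK3 and PPP1R15A passed both thresholds with siRNA 1 and EIF2AK3 with siRNA 2.

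The libraries of the compared groups did not overlap for 7 and 5 of the 9 genes with siRNA 1 and siRNA 2, beside 51.7% and 54.3% of all genes, and for 5 and 7 of 9 at 400 nM and 800 nM C16, beside 39.6% and 51.8%. Between the siRNAs this held for 5 of 9 beside 60.6%, and between the doses for 3 of 9 beside 30.4%. Median log2 fold changes of the 9 genes were -0.07 and 0.08 with siRNA 1 and siRNA 2 and 0.20 and 0.55 at 400 nM and 800 nM C16, beside -0.01, -0.01, 0.00 and 0.00 for all genes. Without EIF2AK2, the siRNA target, the medians of the other 8 genes were 0.01, 0.13, 0.24 and 0.58.

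Between the doses of C16, limma counted 0 of the 9 genes past both thresholds, beside 5.09% of all genes. PRKRA alone had an adjusted p under 0.05, where 14.3% of all genes did, and 2 (EIF2AK3 and PRKRA) had an unadjusted p under 0.05. EdgeR's quasi-likelihood test counted 2 past both thresholds (EIF2AK3 and PRKRA) and DESeq2 counted 0. An exact permutation test of 3 libraries against 3 cannot give a p under 0.1, so no single gene can pass on that test.

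**Figure D4:**
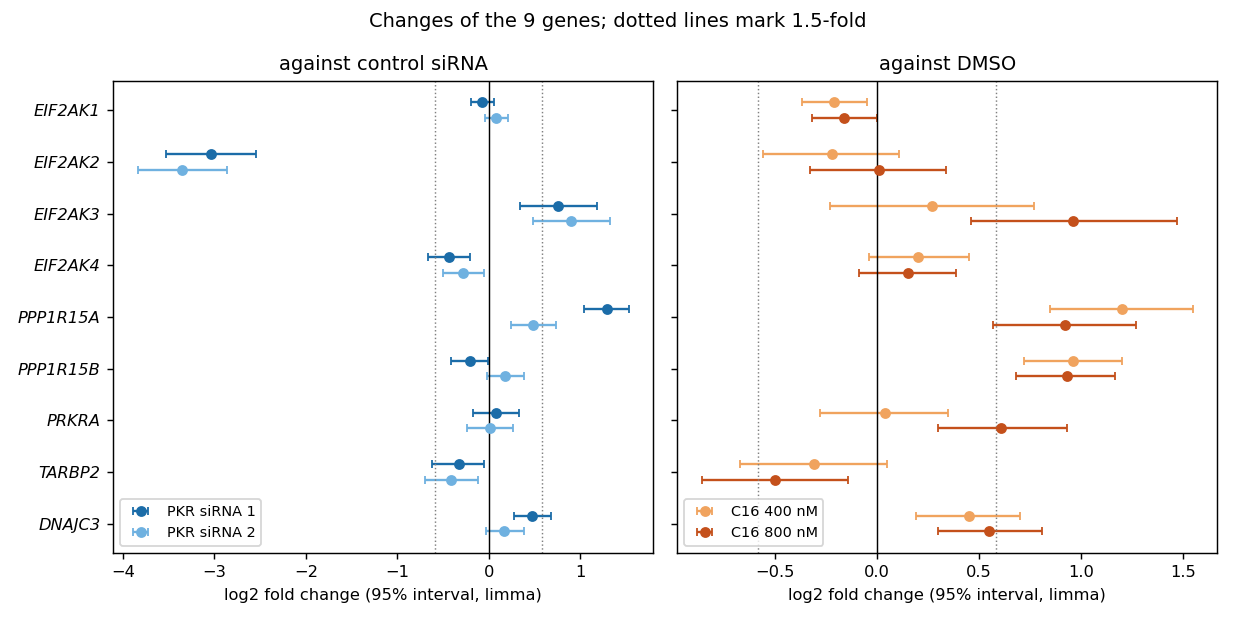
Log2 fold change of the 9 genes with 95% intervals from limma, against control siRNA (left) and against DMSO (right, a narrower axis), with dotted lines at 1.5-fold. EIF2AK3 lies to the right of 0 in the 3 comparisons it passed, and PPP1R15B lies past the 1.5-fold line with C16 and within it with the siRNAs. The estimates of TARBP2 lie to the left of 0 throughout, but its interval at 400 nM C16 (-0.67 to 0.05) crosses 0.

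In a list of 12 genes for eIF2, eIF2B, EIF5 and the catalytic subunits of protein phosphatase 1, 2 rose with siRNA 1 (EIF2S2, a subunit of eIF2, and EIF2B2, a subunit of its exchange factor) and 1 fell (PPP1CB, a catalytic subunit). These 3 of 12 stand beside 21.1% of all genes, and without the second siRNA 1 library 5 of 12 passed. With siRNA 2, at 400 nM C16 and at 800 nM, limma, edgeR and DESeq2 each counted 0 past both thresholds, beside limma's 23.5%, 12.5% and 25.7% of all genes, while 3, 4 and 6 of the 12 had an unadjusted limma p under 0.05. At 800 nM 1 passed without the third DMSO library and without the first 800 nM library. The medians of this list were 0.12, -0.03, -0.03 and 0.16, beside -0.01, -0.01, 0.00 and 0.00 for all genes. Of 13 regulators of the kinases, 0 rose and 1, 1, 1 and 2 fell in the same 4 comparisons, smaller shares than the 21.1%, 23.5%, 12.5% and 25.7% of all genes. Of these regulators 2 passed at 400 nM without the first DMSO library, and 1 at 800 nM without the third DMSO library or the first 800 nM library. On the adjusted p alone, whatever the fold change, 9, 7, 5 and 5 of the 13 passed, beside 45%, 47.3%, 26.5% and 44.9% of all genes. DICER1, the nuclease that TARBP2 and PRKRA assist, fell from 246 ± 3.01 to 154 ± 6.85 with siRNA 1 and 125 ± 12.5 with siRNA 2, by 0.67 and 0.97 on the log2 scale (limma adjusted p = 9.74e-09 and 2.02e-14). With C16 DICER1 was higher, at 113 ± 6.69 and 119 ± 14.6 beside 82.9 ± 2.19 in DMSO, with log2 fold changes of 0.44 and 0.51 (limma adjusted p = 0.00397 and 0.000355), short of 1.5-fold. OMA1, the mitochondrial protease that cleaves DELE1 upstream of EIF2AK1, fell from 24.8 ± 4.67 in DMSO to 11.3 ± 2.22 and 12.5 ± 4.50 with C16, by 1.06 and 0.97 (limma adjusted p = 0.00545 and 0.00634). DELE1, listed as KIAA0141, fell at 800 nM. With a minimum mean of 30, which left out OMA1 for its low counts, 0 of the 13 regulators passed at 400 nM and 1 at 800 nM.

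Genes known to be induced downstream of eIF2 alpha phosphorylation mostly stood higher in the treated libraries. The phosphorylation of eIF2 alpha was not measured in these libraries. On western blots of PANC-1 cells, the study reports it unchanged after PKR knockdown or the inhibitor. What drove the values given here was not tested. Of 14 tested in the siRNA experiment, 10 rose and 0 fell with siRNA 1, where 21.1% of all genes passed in either direction, and 6 rose and 2 fell with siRNA 2, where 23.5% did. Of 15 tested in the C16 experiment, 9 rose and 0 fell at 400 nM, beside 12.5% of all genes, and 10 rose and 3 fell at 800 nM, beside 25.7%. The list medians were 0.80, 0.46, 0.70 and 0.62, where those of all genes were -0.01, -0.01, 0.00 and 0.00, and the difference between the siRNAs over the list was not tested. ATF3, a stress-induced repressor, rose in all 4 comparisons, by 1.32, 1.21, 1.95 and 1.90 on the log2 scale (limma adjusted p from 2.59e-13 to 7.14e-07). DDIT3 (CHOP), the transcription factor that drives PPP1R15A, rose by 0.72, 0.83, 1.05 and 0.80. The study lists ATF3 and DDIT3 in the same supplementary set of raised genes as EIF2AK3. That set was chosen on the libraries of both siRNAs and of 800 nM C16, so these rises are no independent evidence of direction. SESN2, an inhibitor of mTORC1 signalling, rose by 0.95 with siRNA 1 and by 1.32 and 1.05 with C16, but fell by 0.61 with siRNA 2.

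ATF4, whose mRNA is the best known of those translated under phosphorylated eIF2 alpha, rose from 292 ± 46.8 to 649 ± 55.4 and 510 ± 23.4 with the siRNAs and to 404 ± 7.94 from 250 ± 15.0 at 400 nM C16. At 800 nM it stood at 279 ± 24.6, with a log2 fold change of 0.16 (limma adjusted p = 0.115). TRIB3, CHAC1, CEBPB and CEBPG rose with siRNA 1 and did not pass both thresholds with siRNA 2. Their log2 fold changes there were 0.08, -0.21, -0.20 and 0.41 (limma adjusted p = 0.641, 0.439, 0.435 and 0.000164), so CEBPG was short only of 1.5-fold. Between the siRNAs TRIB3, CHAC1 and CEBPB differed past both thresholds, by -0.59, -1.14 and -1.34, and CEBPG by -0.38, short of 1.5-fold. NUPR1 and DDIT4, stress-induced genes, rose with both siRNAs, by 0.80 and 3.27 for NUPR1 and by 0.80 and 1.82 for DDIT4. At 800 nM C16 NUPR1 fell by 1.72 and DDIT4 fell by 1.11. ATF5 rose with siRNA 2 by 1.36 and fell at 800 nM C16 by 0.96. PSAT1, SLC7A11 and VLDLR rose at both doses of C16, SLC7A11 by 1.54 and 1.27, while SLC7A11 fell with siRNA 2 by 0.74. VLDLR, at 6.01 ± 1.53 in DMSO, passed the filter on low values only through its C16 libraries. It is counted among the genes that rose at both doses, so its place there was not independent of that rise. The same holds in the siRNA counts for NUPR1, at 7.53 ± 2.79 with control siRNA, which passed through its PKR siRNA libraries.

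Of 10 chaperone and related genes of the endoplasmic reticulum, the compartment that EIF2AK3 monitors, 2 rose with siRNA 1, 1 rose and 1 fell with siRNA 2, and 4 and 5 rose at 400 nM and 800 nM C16, with medians of 0.23, -0.12, 0.52 and 0.57. The shares of all genes that passed were 21.1%, 23.5%, 12.5% and 25.7%, so 2 of 10 with each siRNA is no more than the background. With siRNA 1 the count was 1 without the first or second control library or the second siRNA 1 library. At 400 nM it was 2 without the first DMSO library or with a pseudocount of 5, and at 800 nM 3 without the first DMSO library or the third 800 nM library. On the adjusted p alone 5, 6, 6 and 7 of the 10 passed, beside 45%, 47.3%, 26.5% and 44.9% of all genes. HSPA5 was higher in all 4 comparisons, by 0.46, 0.39, 0.62 and 0.55 (limma adjusted p from 2.45e-13 to 3.6e-10), over 1.5-fold only at 400 nM. HSP90B1, another chaperone, differed by -0.07, -0.48, -0.12 and 0.14. HYOU1, a large chaperone, rose from 485 ± 55.6 to 759 ± 18.3 and 742 ± 65.3 with C16 (log2 0.65 and 0.61, limma adjusted p = 9.6e-11 and 2.43e-10) and differed by 0.27 and -0.07 with the siRNAs. MANF rose with siRNA 1 and both doses of C16, by 0.66, 0.59 and 0.72. HERPUD1, a degradation factor, rose with both siRNAs, by 0.70 and 1.13. SDF2L1 rose with C16, by 0.61 and 0.60, and fell with siRNA 2 by 0.87.

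Of the double-stranded RNA sensors and interferon-stimulated genes, the group to which EIF2AK2 itself belongs, 11 of 19 were tested in the siRNA experiment and 12 in the C16 experiment. With siRNA 1, 1 rose and 3 fell, with siRNA 2, 2 rose and 2 fell, at 400 nM C16, 1 rose and 1 fell, and at 800 nM, 1 rose and 6 fell. Beside these, 21.1%, 23.5%, 12.5% and 25.7% of all genes passed. At 400 nM the count of 2 of 12 was 0 without the second DMSO library and 1 without DMSO library 1, DMSO library 3 or 400 nM library 3, and at 800 nM the count of 7 was 3 with a minimum mean of 30. The medians were -0.29, -0.42, -0.26 and -0.62. OAS3, a synthetase activated by double-stranded RNA, fell with both siRNAs, by 0.60 and 0.90, and rose with C16, by 0.61 and 0.76. At 800 nM OASL fell from 21.6 ± 6.57 to 1.94 ± 2.58 and IFIT2 from 43.8 ± 9.70 to 13.3 ± 4.49, while EIF2AK2 stood at 49.9 beside 49.8 in DMSO. OASL passed the filter on low values only through its DMSO libraries, so its place among the genes that fell was not independent of that fall. In the siRNA experiment OASL was not tested. IFIT2 rose with both siRNAs, by 0.97 and 0.79. IRF7, a transcription factor of the interferon response, went opposite ways with the siRNAs. From 25.4 ± 3.09 normalized counts in the control (SD, n = 3) it fell to 15.2 ± 1.59 with siRNA 1 and rose to 73.9 ± 5.49 with siRNA 2 (limma adjusted p of the difference = 1.93e-15). In the C16 experiment IRF7 stood at 19.1 ± 3.6 in DMSO, 9.84 ± 1.16 at 400 nM and 8.48 ± 5.36 at 800 nM, a fall of 1.21 at 800 nM. There IRF7, like OASL, passed the filter on low values only through its DMSO libraries. Its place among the genes that fell at 800 nM was thus not independent of that fall. IFIT1 fell by 0.76 with siRNA 2 and fell by 0.85 at 800 nM C16.

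**Figure D5:**
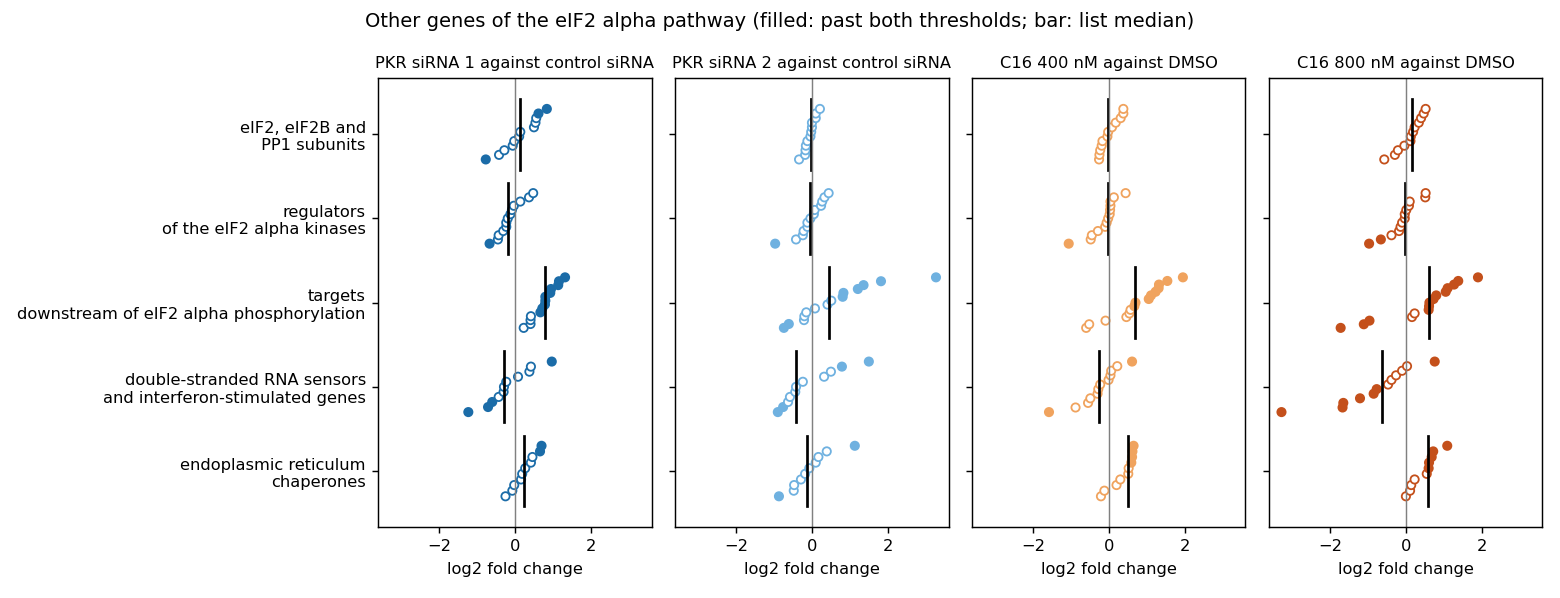
Log2 fold change of the genes of 5 pathway lists in the 4 comparisons against control siRNA or DMSO (each circle is a gene, filled where past both thresholds, and the vertical bar is the list median). The targets downstream of eIF2 alpha phosphorylation have medians of 0.80, 0.46, 0.70 and 0.62, and those of the eIF2, eIF2B and phosphatase 1 subunits lie between -0.03 and 0.16, with single genes farther out.

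The genes with the most similar profiles were sought over the 9 libraries of an experiment for genes averaging at least 50 normalized counts, by the root mean square difference in log2 level relative to the control mean, as a description with no test. Nearest to EIF2AK2 in the siRNA experiment were SORL1, SPNS2 and KRT80, at 0.64, 0.77 and 0.82, where the median over 6774 genes was 2.61. SORL1 went from 561 ± 20.5 to 78.6 ± 6.03 and 114 ± 10.1, a smaller drop than that of EIF2AK2. Nearest to EIF2AK3 were MAML1, SNX25 and TTC19 in the siRNA experiment, at 0.10, 0.17 and 0.17 beside a median of 0.76, and SUCLG1, SUPV3L1 and CPEB4 in the C16 experiment, at 0.23, 0.23 and 0.24 beside a median of 0.63 over 5323 genes. MAML1 went from 94.8 ± 7.19 to 152 ± 26.1 and 178 ± 9.56. None of the 3 nearest genes of EIF2AK3 was shared by the 2 experiments. With 3 genes taken from 6774 and from 5323, this would be likely in any case and says nothing about EIF2AK3.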

How the data were processed

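RNA of PANC-1 cells was measured in 18 libraries of 6 groups, which were taken from the sample labels. The authors prepared poly(A) libraries with a directional kit, used TopHat to map reads to hg38 and featureCounts to count them, and scaled each experiment by TMM in TCC. Versions, annotation and counting strand are not given in the sources used here. The deposited values are this normalized signal per gene. Dividing by what 1 read is worth gave whole reads for 100.0% of values in each library (tolerance 0.001 read), so reads were recovered, although for PKR siRNA 2 library 1 and 800 nM C16 library 1 that worth is so close to 1 that multiples are hard to tell from rounding. All columns were assigned to a sample. Total reads per library limit the precision of genes with few reads.

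Normalized counts were tested as log2 (value + 1) with limma 3.58.1 in R 4.3.3 (lmFit, eBayes with trend), fitting the 9 libraries of an experiment together and leaving out genes that averaged under 10. Genes averaging under 10 in some groups could pass this filter through the groups where they were high. Examples are OASL and IRF7 through DMSO, VLDLR through C16 and NUPR1 through the PKR siRNAs. The 9 genes, the gene lists, written from memory, and the tests were chosen with earlier results of these data known. Named beyond the 9 genes are members of the lists past both thresholds in 2 or more comparisons against a control, with a few more named beside a count of 2 or fewer, and the 3 nearest genes by profile. HSPA5 and HSP90B1 were named outside this rule. Alternatives on the normalized values were other pseudocounts (0.5 and 5), other filters (none, and a minimum mean of 30), rescaling by median of ratios, a fit of the compared groups alone, and a block for the replicate number. Each library was left out in turn, and recovered reads were tested with edgeR 4.0.16 and with DESeq2 1.42.0. On simulated reads limma recovered 196 of 200 changed genes among 10593 with 1 false call (PKR siRNA 1 against control siRNA), and 199 of 200 among 9965 with 8 false calls (400 nM C16 against DMSO). At 2-fold, the smallest size put in, limma recovered 96% and 99% in these comparisons. The changed genes were drawn only from those averaging at least 30 normalized counts. Recovery of changes under 2-fold, such as those of EIF2AK3 and PRKRA, was not tested. Nor was recovery of genes averaging 10 to 30, such as EIF2AK3 in the C16 experiment. Replicates differed by more than sampling noise in 18 of 18 pairs, so none were merged.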

Additional observations from a re-analysis of the deposited data

Results flagged for a closer look

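The effects of the 2 PKR siRNAs differed, by limma's test of PKR siRNA 2 minus PKR siRNA 1 with Benjamini-Hochberg adjustment, for 4 of the 9 genes, where 57% of all genes tested did. The difference on the log2 scale was -0.81 for PPP1R15A (adjusted p = 3.23e-08), 0.39 for PPP1R15B (adjusted p = 0.000561), -0.30 for DNAJC3 (adjusted p = 0.00947) and 0.15 for EIF2AK1 (adjusted p = 0.0386). Of these only PPP1R15A differed by over 1.5-fold, and the libraries of the 2 siRNAs did not overlap for PPP1R15A, PPP1R15B and DNAJC3. EIF2AK1 overlapped. The doses of C16 differed for PRKRA, by 0.58 (800 nM minus 400 nM, limma adjusted p = 0.00786), where 14.3% of all genes differed. The groups of 3 libraries are too small for a search for outlying libraries.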

How the results depend on the processing

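Depth limits EIF2AK3 and the residual EIF2AK2 most. The rises of EIF2AK3 with both siRNAs and at 800 nM C16, of PPP1R15A with PKR siRNA 1 and both doses, and of PPP1R15B at both doses, and the fall of EIF2AK2, kept their direction and passed both thresholds under every alternative that tested them. EIF2AK3 had a mean under 30 in the C16 experiment and was not tested there under that minimum. The counts of the 9 genes passing were 3, 2, 1 and 2 with any library left out (PKR siRNA 1 and 2 against control, siRNA 2 against 1, and 400 nM C16) and 3 to 5 at 800 nM, where PRKRA was lost with a pseudocount of 5 (0.57).

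Between the doses of C16 the count was 0 as reported, 1 with a pseudocount of 5 and with only the 2 groups fitted, 2 with median-of-ratios rescaling and with edgeR, and 0 to 2 with a library left out. The genes gained were EIF2AK3 (0.59 to 0.88 where gained) and PRKRA (0.59 to 0.64), so whether they pass between doses depends on these settings, and the cause was not tested. Reversed signs were near 0: PRKRA at 400 nM was -0.004 with edgeR and -0.01 with DESeq2. With a library left out PRKRA ranged from -0.03 to 0.16 with PKR siRNA 1, -0.10 to 0.09 with PKR siRNA 2 and -0.14 to 0.14 at 400 nM, EIF2AK2 from -0.05 to 0.07 at 800 nM, and, between doses, PPP1R15B from -0.09 to 0.03 and EIF2AK4 from -0.11 to 0.01.

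Over all genes, DESeq2 called 188 between doses beside 507 for limma, and the minimum mean of 30 gave 0.62 to 0.63 times the calls in the C16 experiment. No pairing of libraries by replicate number was seen: same-numbered libraries correlated from -0.083 to 0.079 in their deviations from group means. Differently numbered libraries reached -0.146 and 0.114 (800 nM C16 against DMSO), so a weak pairing could not be told from none. With the replicate number as a block the counts of the 9 genes were 3, 2, 1, 2, 4 and 0, the same as without it.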
